A study of Homo sapiens with 2 samples.

Results

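Peroxiredoxins and their partner antioxidant enzymes were followed through 2 direct RNA libraries of GM12878, an established human line of B lymphoblasts that carries Epstein-Barr virus. The 10 genes were taken by symbol, as a list drawn up with earlier results of these data known: PRDX1 to PRDX6, TXN, GPX1, GPX4 and SOD1. All 10 were read in both libraries, among 16645 annotated genes with a read in either, and their reads were spread over 359 of the 237608 transcript models in the deposited table. Both libraries belong to 1 group, with no treatment named, and nothing in the labels says that they came from separate cultures. Each test below therefore compares the reads of these 2 libraries and not conditions, and its p-value covers counting error only. Depleted RNA was read as native strands on Oxford Nanopore flow cells, so 1 read is 1 RNA strand and read counts were not divided by gene length. The series set out to assess a long-read pipeline for finding and counting transcripts.

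Peroxiredoxins are thiol enzymes that reduce hydrogen peroxide through a peroxidatic cysteine. PRDX1 and PRDX2 work in the cytosol, PRDX3 in mitochondria and PRDX4 in the endoplasmic reticulum. PRDX5 is found in mitochondria, peroxisomes and cytosol, and PRDX6 forms its disulphide with glutathione rather than thioredoxin. TXN encodes thioredoxin, which reduces the oxidised peroxiredoxins through a pair of cysteines. GPX1 and GPX4 are glutathione peroxidases with selenocysteine in the active site, read from a UGA codon, and GPX4 reduces lipid hydroperoxides in membranes. SOD1 is the cytosolic copper and zinc superoxide dismutase, which turns superoxide into hydrogen peroxide.

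The coding sequence around the catalytic codon shows how close the family members are whose reads the assignment had to keep apart. Each stretch below has 30 bases and comes from the GENCODE release 29 transcript of the known model with the most reads. It is written 5′ to 3′ with the catalytic codon in capitals, which codes for cysteine in PRDX1 to PRDX6 and TXN and for selenocysteine in GPX1 and GPX4.
PRDX1: gacttcacctttgtgTGCcccacggagatc
PRDX2: gacttcacttttgtgTGCcccaccgagatc
PRDX3: gatttcacctttgtgTGTcctacagaaatt
PRDX4: gatttcacatttgtgTGTccaactgaaatt
PRDX5: gccttcacccctggaTGTtccaagacacac
PRDX6: gactttaccccagtgTGCaccacagagctt
TXN: ttctcagccacgtggTGTgggccttgcaaa
GPX1: aatgtggcgtccctcTGAggcaccacggtc
GPX4: aacgtggcctcccagTGAggcaagaccgaa
PRDX1 and PRDX2 differed at 2 of the 30 bases, PRDX3 and PRDX4 at 3, and PRDX5 and PRDX6 at 14. Over the whole coding sequence, 72.6% of the aligned columns were identical between PRDX1 and PRDX2 and 60.8% between PRDX3 and PRDX4. The other aligned pairs of peroxiredoxins, and GPX1 with GPX4, lay between 46.97% and 51.7%. Gap columns were counted, which lowers the identity of pairs of unlike length. The coding sequences of PRDX3 (768 bases) and PRDX4 (813) are longer than those of PRDX1 (597) and PRDX2 (594). Within the 30 bases, PRDX1 differed from PRDX3 at 6, from PRDX4 at 7, from PRDX6 at 8 and from PRDX5 at 13.

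Replicate 1 held 1360368 reads and replicate 2 held 1510998, and models that match an annotated transcript, called known, took 55.9% and 45.9% of them. Models that match part of an annotated transcript took 23.8% and 31.9%, and genomic models, placed at a gene but outside its annotated splicing, 11.0% and 15.3%. All 8 B cell markers were read in both libraries, with summed levels of 11854 and 11837 CPM, the reads of a gene scaled to a library total of 1e6 reads. The 4 T cell markers summed to 5.88 and 17.2 CPM, from CD3E (5 and 16 reads) and CD2 (3 and 10 reads), with CD3D and CD3G at 0. The 4 myeloid markers summed to 2.94 and 6.62 CPM. The 2 liver markers summed to 0 and 0.662 CPM and the 2 fibroblast markers to 1.47 and 1.99 CPM. All 3 erythroid markers were at 0; a count of 0 allows a level of up to 2.21 CPM in the first library and 1.99 CPM in the second.

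Together the 10 genes took 5959 reads, 0.438% of replicate 1 (95% Wilson interval 0.427 to 0.449%), and 6197 reads, 0.410% of replicate 2 (0.400 to 0.420%). The mean share was 0.424% ± 0.0197 (SD, n = 2). In bulk RNA, fewer cells with a transcript and less of it per cell cannot be told apart. Their levels spanned a wide range, from GPX1 at rank 153 to PRDX4 at rank 1685 of the 16645 genes. GPX1 had 1318 and 1350 reads, or 969 and 893 CPM, a mean of 931 CPM ± 53.3 (SD, n = 2). PRDX1 had 1256 and 1206 reads, or 923 and 798 CPM, a mean of 861 CPM ± 88.5 (SD, n = 2). The ranges of GPX1 and PRDX1 over the 2 libraries overlapped, although GPX1 was the higher of the 2 genes within each library.

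TXN followed with 791 and 814 reads (581 and 539 CPM) and GPX4 with 685 and 639 reads (504 and 423 CPM). PRDX2 had 461 and 593 reads (339 and 392 CPM), and PRDX5 had 462 and 541 reads (340 and 358 CPM). The ranges of PRDX2 and PRDX5 overlapped too, and the order of this pair differed between the libraries. The ranges of the other neighbours in the order of levels did not overlap. SOD1 had 431 and 452 reads (317 and 299 CPM) and PRDX6 273 and 281 reads (201 and 186 CPM). The lowest levels belonged to the mitochondrial PRDX3, with 159 and 197 reads (117 and 130 CPM), and to PRDX4 of the endoplasmic reticulum, with 123 and 124 reads (90.4 and 82.1 CPM). The plot of levels by gene shows this order. It held for reads of all models and changed with the models counted. With known models only, GPX4 had a mean of 143 CPM, below PRDX6 at 213, and SOD1 at 502 CPM stood above PRDX5 at 459.6. The means of GPX1 (1788 CPM), TXN (995 CPM) and SOD1 also moved by over 1.5 times there. That total is smaller for all genes alike, and GPX1, TXN and SOD1 had the highest known shares of the members. With genomic models left out, PRDX3 (91.5 CPM) stood below PRDX4 (99.3 CPM).

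**Figure D1:**
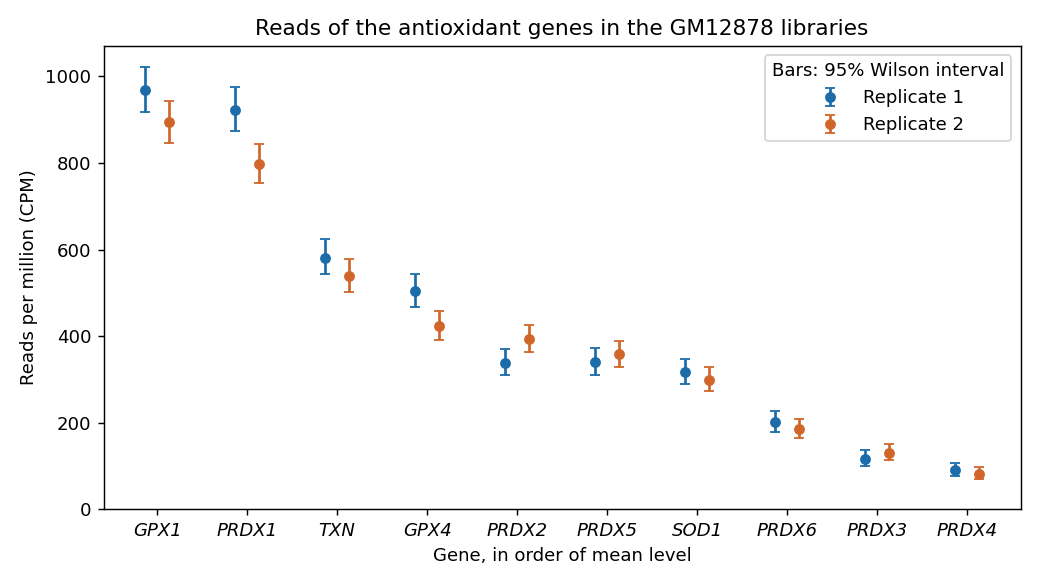
Level of each gene in CPM (vertical axis, from 0) in replicate 1 and replicate 2, with 95% Wilson intervals that cover counting error only. GPX1 and PRDX1 lie highest, with 969 and 923 CPM in replicate 1, and PRDX4 lowest, with 90.4 CPM.

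PRDX1 and GPX4 fell in CPM from replicate 1 to replicate 2, and the other 8 genes did not pass the test between the libraries. The log2 ratio of replicate 2 to replicate 1, with 0.5 reads added to each count, was -0.21 for PRDX1 (95% exact interval -0.33 to -0.09, adjusted p of 0.0104, exact binomial test with Benjamini-Hochberg adjustment over all genes). For GPX4 it was -0.25 (-0.41 to -0.09, adjusted p of 0.0349, exact binomial test). Across the 10634 genes that had 10 reads or more, 5.05% passed, 2.72% as higher and 2.33% as lower in replicate 2. In the 3879 genes with 100 reads or more, as all members have, 14.4% passed, 6.6% as higher and 7.81% as lower. The members' count of 2 in 10, both lower, is near this background. Of all calls 53.8% were higher in replicate 2, against 31.1% with known models only, where the median log2 ratio of all genes shifted to -0.26, and 41.5% with genomic models left out. PRDX2 had a ratio of 0.21 (0.03 to 0.39), with an adjusted p of 0.184 in the exact binomial test, and PRDX3 one of 0.16 (-0.15 to 0.47). PRDX2 passed with genomic models left out (0.28, adjusted p of 0.025) and with known models only (0.32, adjusted p of 0.0211). With known models only, PRDX3 turned to -0.69 (adjusted p of 0.0284) and GPX1 to 0.16 (adjusted p of 0.0279), and both passed the exact binomial test. The remaining 6 genes lay between -0.14 (PRDX4) and 0.08 (PRDX5). The median was -0.11 over the members and 0.01 over all genes tested. The call of GPX4 did not hold with genomic models left out (-0.20, adjusted p of 0.0957) or with known models only (-0.06, adjusted p of 0.921).

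The categories of the models give how far each read matched the annotation. Incomplete splice matches (ISM) hold consecutive junctions of a known transcript but lack some at an end. NIC models use known splice sites in a combination not annotated. NNC models hold at least 1 unannotated splice site. Over the 10 genes, known models held 74.4% of reads in replicate 1 (73.3 to 75.5%) and 66.1% in replicate 2 (64.9 to 67.3%). ISM models held 9.38% and 17.3%, NIC models 4.56% and 3.42%, NNC models 9.50% and 8.05%, and genomic models 2.16% and 5.08%. Of the 359 models, 26 were known, 117 ISM, 93 NIC, 112 NNC and 11 genomic.

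**Figure D2:**
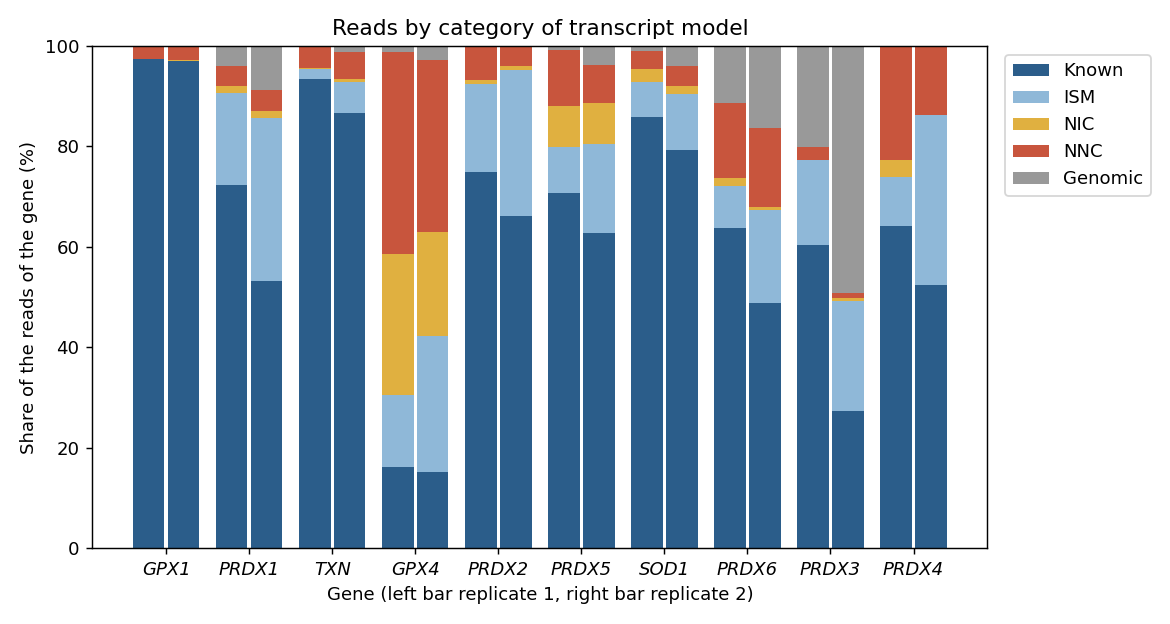
Share of the reads of each gene (vertical axis, percent) by category of transcript model, with replicate 1 as the left bar and replicate 2 as the right bar of each gene. Known models fill nearly all of GPX1 (97.3% and 96.96%), while NIC and NNC models hold most of GPX4 in replicate 1 (28.0% and 40.3%).

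A smaller share of reads reached known models in replicate 2 in 7 of the 10 genes, by Fisher's exact test of known against other reads with Benjamini-Hochberg adjustment over 6340 genes. Among all genes tested 27.1% passed, 0.268% as higher and 26.9% as lower. Among the 1912 genes that had 100 reads or more in each library 61.2% passed, 0.837% as higher and 60.4% as lower, so 7 in 10 is close to the background at this depth. The median difference was -8.43 percentage points over the members, -8.62 over all genes and -10.3 over these 1912 genes. The level of the share itself was higher in the members, with medians of 71.6% and 57.9% against 32.5% and 17.5% over all genes, given as a description without a test. The latter medians are over all 6340 genes and were not matched to the members for depth or length. The whole libraries moved the same way, from 55.9% to 45.9%.

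Among the peroxiredoxins, PRDX3 had the largest difference. Its known share was 60.4% (52.6 to 67.6%) in replicate 1 and 27.4% (21.7 to 34.0%) in replicate 2, and Fisher's exact test gave an adjusted p of 1.56e-08. PRDX1 fell from 72.4% (69.8 to 74.8%) to 53.2% (50.4 to 56.0%) (adjusted p of 5.91e-21, Fisher's exact test). The intervals of the libraries were far apart in both genes. PRDX6 fell from 63.7% to 48.8% (adjusted p of 0.00322), PRDX2 from 74.8% to 66.1% (adjusted p of 0.0126) and PRDX5 from 70.8% to 62.7% (adjusted p of 0.0305), all by Fisher's exact test. PRDX4 had 64.2% and 52.4%, which did not pass (adjusted p of 0.179, Fisher's exact test).

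Thioredoxin and SOD1 were read mostly in known models in both libraries. The share of TXN fell from 93.4% to 86.6% (adjusted p of 8.10e-05, Fisher's exact test) and that of SOD1 from 85.8% to 79.2% (adjusted p of 0.0398, the same test). The glutathione peroxidases stood at opposite ends, with GPX1 at 97.3% and 96.96% and GPX4 at 16.2% and 15.2%, and neither passed the test (adjusted p of 0.801 and 0.881, Fisher's exact test). With genomic models left out, PRDX5 (-6.21 points, adjusted p of 0.117) and SOD1 (-4.16 points, adjusted p of 0.248) no longer passed. With only known and ISM models counted, PRDX4 (-26.1 points, adjusted p of 0.000381) and GPX4 (-17.2 points, adjusted p of 0.0012) passed and SOD1 (-4.97 points, adjusted p of 0.0534) did not, all by Fisher's exact test.

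**Figure D3:**
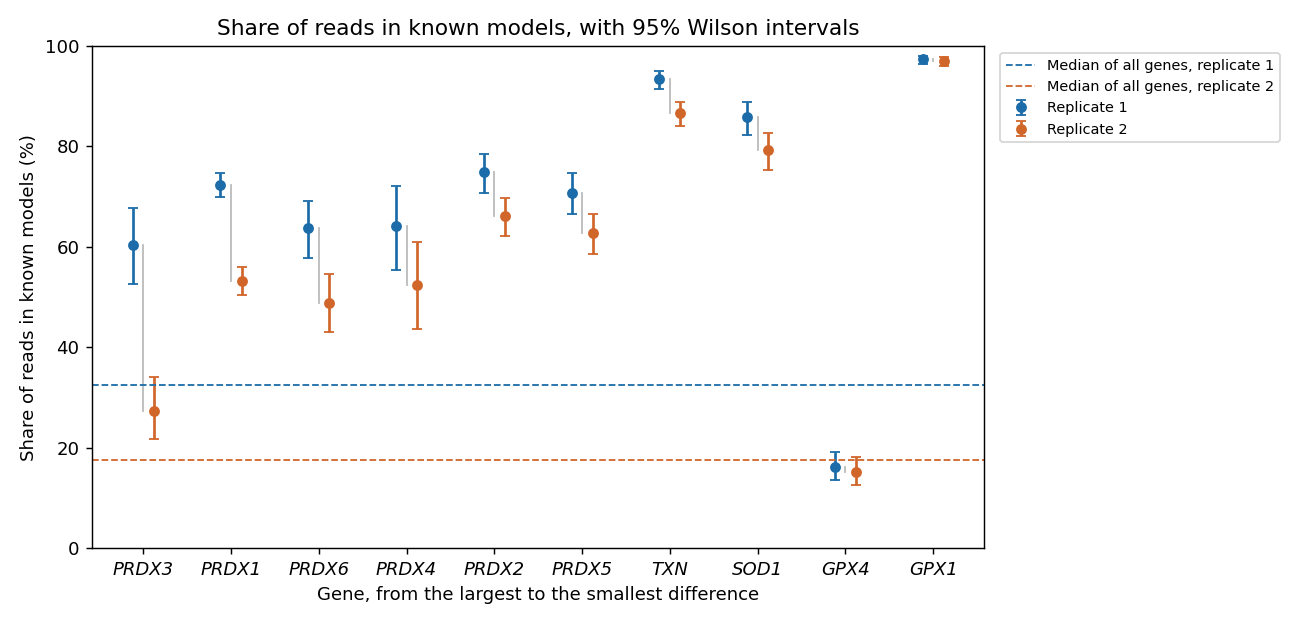
Share of reads in known models (vertical axis, percent) in each gene and library, with 95% Wilson intervals, ordered from the largest to the smallest difference; dashed lines are the medians of all 6340 genes tested, 32.5% in replicate 1 and 17.5% in replicate 2. In replicate 1 every gene except GPX4 lies above the median of that library, and PRDX3 shows the widest gap, from 60.4% to 27.4%.

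Most ISM reads of the members kept the 3′ end of an annotated transcript and lacked 5′ exons. Such suffix models took 537 of 559 ISM reads in replicate 1 (96.1%) and 1005 of 1073 in replicate 2 (93.7%). Whether the strands themselves lacked those exons or were read only in part was not tested. PRDX6 had the lowest suffix shares, 12 of 23 and 37 of 52 ISM reads, and GPX1 had no ISM read. The spliced known models of GPX1 have 2 exons each, and all suffix models of the members kept at least 2. The absence of ISM reads thus does not show that the GPX1 strands were complete. In PRDX1, the complete 6-exon model PRDX1-202 had 668 and 424 CPM. The 5-exon suffix models of PRDX1 had 101 and 108 CPM, those with 4 exons 30.1 and 57.6 CPM, those with 3 exons 15.4 and 47.7 CPM and those with 2 exons 19.1 and 39.0 CPM. Replicate 2 was thus lower for reads in the complete PRDX1 model and higher for each shortened class, with a log2 ratio of -0.66 for the complete model and 1.60 for the 3-exon class.

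In PRDX2, the complete 6-exon model had close values of 251 and 259 CPM, and the 2-exon suffix models had 8.82 and 27.1 CPM. In PRDX3, the complete 7-exon model had 67.6 and 31.1 CPM and the 6-exon suffix class was also lower in replicate 2, with 9.56 and 5.96 CPM (13 and 9 reads). The 4-exon class of PRDX3 had 1.47 and 7.94 CPM, of which the first value rests on 2 reads. In TXN, the complete 5-exon model had 541 and 458 CPM and the 4-exon class 5.88 and 15.9 CPM. Summed over the 9 genes with suffix models, the leading known models had 2274 and 1795 CPM, a ratio of 0.789. Models lacking 1 exon relative to the leading model had 167 and 203 CPM (ratio 1.22), those lacking 2 exons 111 and 193 CPM (1.74), those lacking 3 exons 56.6 and 132 CPM (2.33) and those lacking 4 exons 52.9 and 124 CPM (2.34). Models lacking 5 exons, found in 2 genes with 10 and 20 reads, had 7.35 and 13.2 CPM (1.80), so the ratio did not go on increasing. Of the 31 suffix classes with at least 10 reads, 30 were higher in replicate 2, the 6-exon class of PRDX3 being the exception, and of the 10 leading known models 9 were lower, PRDX2 being the exception. Over all annotated genes with 100 reads or more, 70.9% of 7484 suffix classes with at least 10 reads were higher in replicate 2 and 86.7% of 3217 leading known models were lower. These counts are descriptions, since the classes of a gene share its strands. A class is defined by exon number only, and a suffix model can match an annotated transcript other than the leading one.

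**Figure D4:**
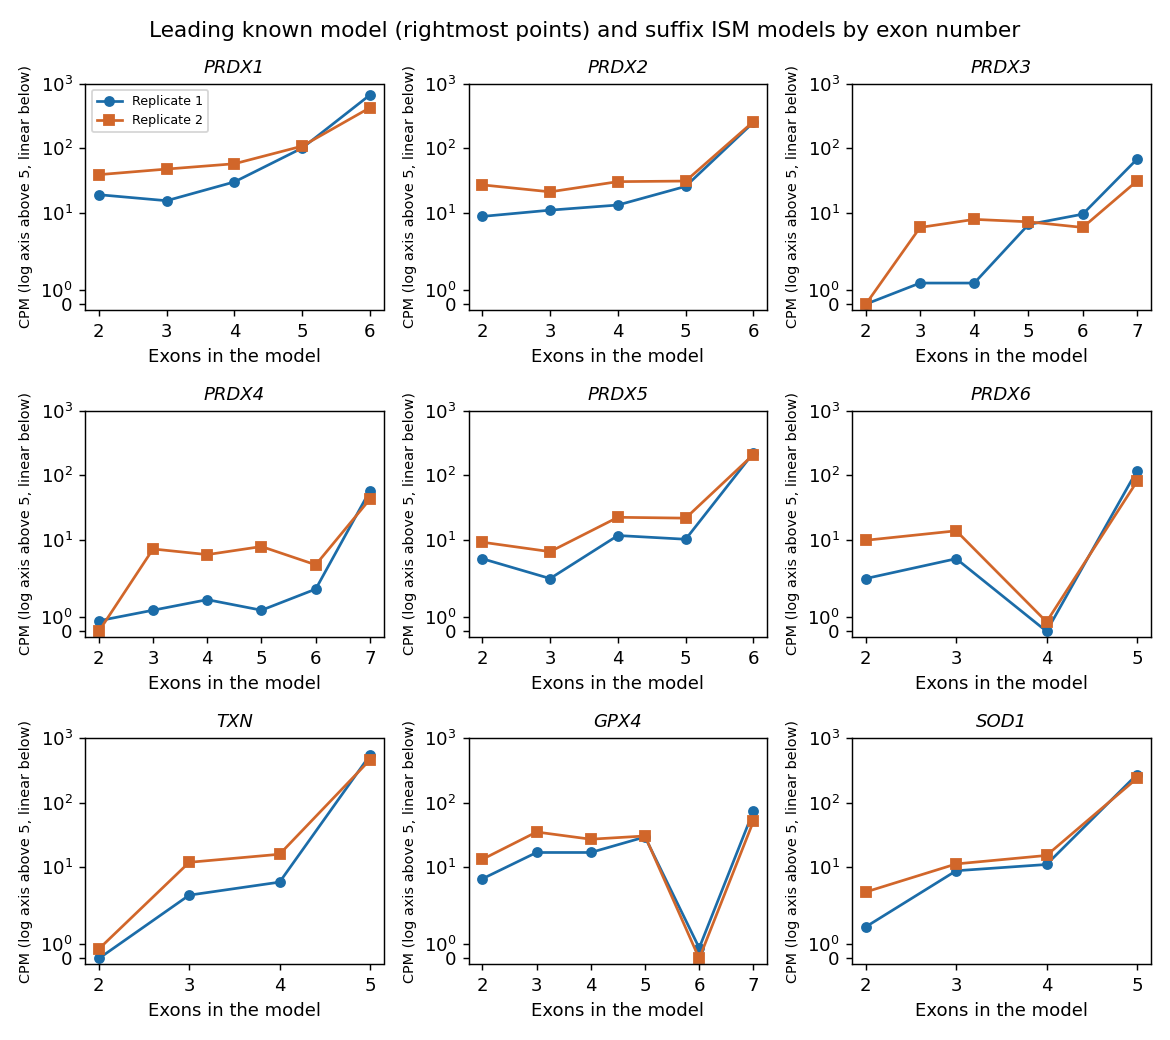
CPM (vertical axis, logarithmic above 5 and linear below) against the number of exons in the model for 9 genes; the rightmost point is the leading known model and the others are the summed suffix ISM models with that exon number. Replicate 2 lies below replicate 1 at the complete model in 8 of the 9 genes, PRDX2 excepted, and above it in most shorter classes, for example 47.7 against 15.4 CPM for 3-exon PRDX1.

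Among the members, genomic models had the largest shares in PRDX3, PRDX6 and PRDX1. Genomic models took 11.0% and 15.3% of all reads of the libraries. PRDX3 stood above these shares in both libraries, PRDX6 was near them and PRDX1 was below them. PRDX3 lies on chromosome 10 (119167703 to 119178833, minus strand, GRCh38), and 1 single-exon genomic model of 367 bases, ENCODEHT000693888, held 32 of its 159 reads in replicate 1 and 95 of 197 in replicate 2. Genomic reads made up 20.1% (14.6 to 27.0%) and 49.2% (42.3 to 56.2%) of PRDX3, so they were more frequent in replicate 2 than known reads. With genomic models left out, the log2 ratio of PRDX3 was -0.42 (adjusted p of 0.178, exact binomial test), against 0.16 with all models. PRDX6 (chromosome 1, 173477266 to 173488807, plus strand) had 11.4% and 16.4% genomic reads, and PRDX1 (chromosome 1, 45511036 to 45523047, minus strand) 3.98% and 8.71%. No genomic read was assigned to GPX1, PRDX2 or PRDX4. By the upper Wilson bounds this allows a share of up to 0.291% and 0.284% for GPX1. The bounds were 0.826% and 0.644% for PRDX2 and 3.03% and 3.00% for PRDX4. The bound of GPX1 covers the genomic category only, since unspliced reads can match the single-exon known model GPX1-201 (94 and 200 reads).

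Summed over both libraries, GPX4 was the one gene of the 10 whose most read model was not annotated, although in replicate 2 the genomic model of PRDX3 (95 reads) also exceeded PRDX3-201 (47 reads). The gene lies on chromosome 19 (1103926 to 1106791, plus strand). The NNC model ENCODEHT000283813, with 6 exons and 838 bases, took 34.0% of the first library's reads for the gene (233 of 685) and 28.8% of the second's (184 of 639). The NIC model ENCODEHT000283814, with 6 exons and 834 bases, held 123 and 80 reads. The annotated GPX4-201, with 7 exons and 919 bases, came next with 101 and 78 reads (14.7% and 12.2%). The order of these 3 models was the same in both libraries. GPX4 also had the most NIC models of the 10 genes, 39 of 93, and the most ISM models, 37 of 117. The other known models were rarely read, GPX4-207, which skips exon 5 of GPX4-201, with 7 and 8 reads and GPX4-204 with 1 and 9.

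GPX1 (chromosome 3, 49357171 to 49358600, minus strand) is classed by GENCODE as a polymorphic pseudogene, although its leading model GPX1-202 is annotated as protein-coding. GPX1-202 has 2 exons and 1151 bases and held 1175 reads in replicate 1 and 1101 in replicate 2. GPX1-201, a single-exon known model of 1135 bases that retains the intron, held 94 and 200 reads. The first exon and what follows it in each model are shown at the junction of GPX1-202 (chr3:49357747-49358027), with the 15 bases after the end of exon 1 in capitals, taken from the GENCODE transcripts.
GPX1-202: cagtttgggcatcagGAGAACGCCAAGAAC
GPX1-201: cagtttgggcatcagGTGCGCCGGGCGGAG
Among known reads, the share of GPX1-202 fell from 91.6% to 84.1% (adjusted p of 2.36e-07, Fisher's exact test over 1878 genes). GPX1 was the only 1 of 8 members with testable models to pass, beside 12.5% of all genes tested, 1.44% as higher and 11% as lower. When the leading model could be of any category, 7 of 10 members passed, all lower, beside 29.8% of 6184 genes, 11.4% as higher and 18.4% as lower. When single-exon known models of genes that also have a spliced known model were not counted as known, an alternative chosen after seeing the data, the known share of GPX1 differed by -8.06 percentage points (adjusted p of 4.40e-08, Fisher's exact test), against -0.38 otherwise.

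**Figure D5:**
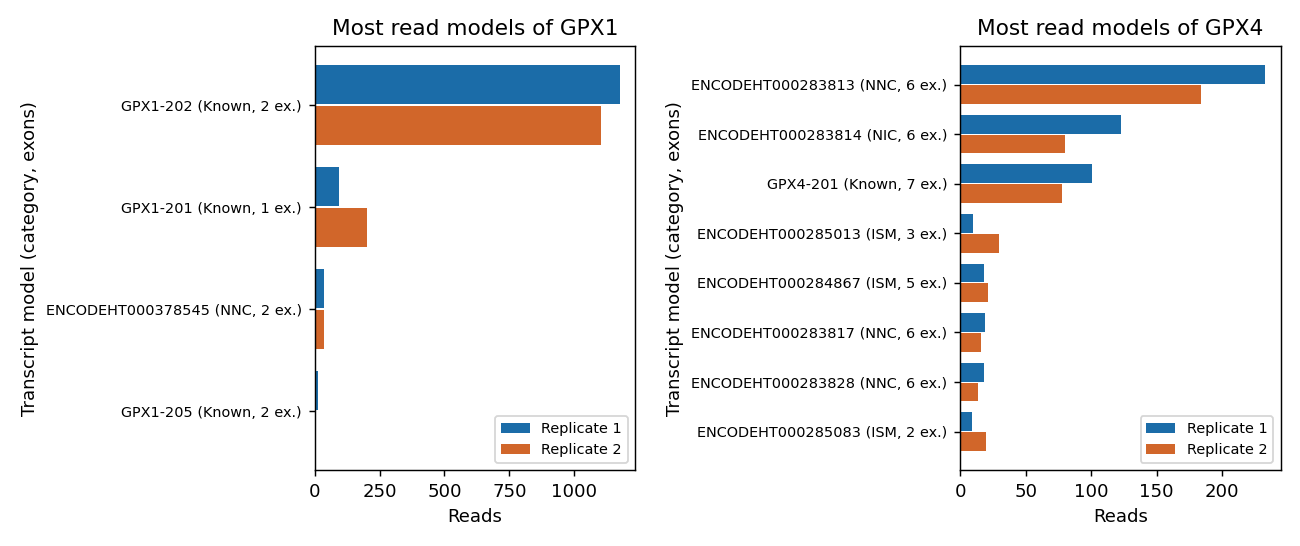
Reads (horizontal axis) of the most read models of GPX1 and GPX4, with category and number of exons, in both libraries. GPX1 is dominated by the known spliced GPX1-202 (1175 and 1101 reads), and in GPX4 the unannotated ENCODEHT000283813 (233 and 184 reads) and ENCODEHT000283814 (123 and 80 reads) exceed the known GPX4-201 (101 and 78 reads).

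Outside GPX1 and GPX4, 1 known model held 87.0% or more of the known reads of each gene in each library. PRDX1-202 held all 909 known reads of PRDX1 in replicate 1 and 641 of 642 in replicate 2, and PRDX2-201 held 342 of 345 and 391 of 392. TXN-202 held 736 of 739 and 692 of 705, and PRDX4 and SOD1 had 1 known model each. PRDX3-201 held 92 of 96 and 47 of 54. In PRDX6, PRDX6-201 held 161 of 174 and 122 of 137, and the noncoding PRDX6-203 nearly all the rest, with 13 and 14 reads.

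PRDX5 (chromosome 11, 64318088 to 64321811, plus strand) had coding alternatives by exon skipping with few reads in both libraries. PRDX5-201, with 6 exons and 893 bases, held 304 and 318 reads. PRDX5-202, which skips exons 2 and 3 of PRDX5-201, held 15 reads in each library, and PRDX5-203, which skips exon 3, held 8 and 6. The share of PRDX5-201 among known reads was 92.97% and 93.8%, and it did not pass the test (adjusted p of 0.997, Fisher's exact test). The junctions after exon 1 show the skip, with the bases of the following exon in capitals, at chr11:64318386-64319734 for PRDX5-201 and chr11:64318386-64320865 for PRDX5-202.
PRDX5-201: atggccccaatcaagGTGGGAGATGCCATC
PRDX5-202: atggccccaatcaagGTTCGGCTCCTGGCT
The unannotated ENCODEHT000439101 (NIC, 5 exons, 689 bases) was read more often than either alternative, with 25 and 26 reads, and ENCODEHT000439133 (NNC, 5 exons, 888 bases) had 27 and 16.

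NNC models with at least 10 reads in each library were also found in PRDX4, PRDX6, PRDX2, PRDX1 and GPX1. In PRDX4 (chromosome X, 23664262 to 23686399, plus strand), ENCODEHT000403366 kept 7 exons, as in the known PRDX4-202, and had 22 and 14 reads, 17.9% and 11.3% of the gene. In PRDX6, ENCODEHT000622528 (899 bases, 20 and 22 reads) and ENCODEHT000622529 (892 bases, 14 and 16 reads) kept 5 exons. Their listed lengths were below the 1751 bases of PRDX6-201, which is its annotated length and not that of its reads. ENCODEHT000368538 of PRDX2 had 27 and 19 reads, ENCODEHT000469060 of PRDX1 18 and 22 reads and ENCODEHT000378545 of GPX1 35 and 37 reads. Many models had thin support: 47 of 117 ISM, 45 of 93 NIC and 73 of 112 NNC models rested on 1 read.

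The copies found by symbol and the overlapping neighbours of the genes took few reads. GENCODE holds 22 genes named as a member followed by P, with or without a number, taken here as pseudogenes. Copies under other names were not searched. Of the 22, GPX1P1 (97.2% identical to GPX1-202 over the aligned bases) had 0 and 2 reads and PRDX1P1 (93.5%) 0 and 1 read. The other 20, including PRDX3P1 (92.6%), TXNP4 (93.2%) and TXNP6 (93.3%), had no read. With these reads added to the parent genes, 2 members passed the gene test as before. PRDX2 (chromosome 19, 12796820 to 12801859, minus strand) lies within HOOK2 on the same strand, which had 21 and 64 reads, and PRDX1 overlaps MMACHC on the opposite strand, which had 14 and 21 reads. Reads of overlapping genes can be assigned to either, and their part in these values was not tested. TXN (chromosome 9, 110243811 to 110256640, minus strand) had no overlapping annotated gene, and SOD1 (chromosome 21, 31659622 to 31668931, plus strand) overlaps AP000254.1, with 1 read in each library.

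Of 48 other genes of thioredoxin, glutathione, selenoprotein and antioxidant metabolism, 40 had a read and 38 had at least 10. FTL, the ferritin light chain, was the only 1 of the 38 to pass, with 2919 and 2156 reads (2146 and 1427 CPM) and a ratio of -0.59 on the log2 scale, where the exact binomial test gave an adjusted p of 1.71e-44, beside 5.05% of all genes. At an unadjusted p under 0.05 in that test there were 6, and 12 of 38 genes had a positive ratio. The same counts over all genes were not made, so neither is read as a trait of the list. The median log2 ratio was -0.10 over the list, 0.01 over all genes tested and -0.05 over genes with 100 reads or more. The highest levels belonged to FTH1, the ferritin heavy chain (2176 and 2101 CPM), FTL, and GSTP1, a glutathione transferase (912 and 906 CPM). PGD, an NADPH-producing enzyme of the pentose phosphate pathway, had 210 and 206 CPM, and TXN2, the mitochondrial thioredoxin, had 180 and 184 CPM.

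Reductases, a chaperone and other peroxide or superoxide enzymes were read as follows. TXNRD1, which reduces thioredoxin, had 50.7 and 49.6 CPM, against 581 and 539 CPM for TXN. GSR, the glutathione reductase, had 49.3 and 63.5 CPM. SRXN1, which restores overoxidised peroxiredoxins, had 22.1 and 14.6 CPM. CCS, the copper chaperone of SOD1, had 46.3 and 34.4 CPM, and CAT, catalase, 12.5 and 10.6 CPM. SOD2, the mitochondrial superoxide dismutase, carries 2 overlapping gene identifiers, with 38.2 and 34.4 CPM under one and 9.56 and 15.2 CPM under the other. None of these 6 passed the test, which for SOD2 was read under the identifier with more reads. They were chosen for naming after their values were seen. GPX2, GPX3, GPX5, GPX6, GPX8, SOD3, SELENOP and TXNRD3 had no row in the table used here, which corresponds to up to 2.21 and 1.99 CPM.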

How the data were processed

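The authors deposited raw read counts per transcript model, whole numbers with no normalization, 1 column per replicate. The same table gives each model's number of exons and length in bases, other properties that the authors deposited. The table's name shows TALON, and minimap2 and hg38 are named per the submitters' processing notes; versions, annotation release and read filters are not given in the sources used here. All 26 known models of the members matched GENCODE release 29 in identifier, exon number and length, so positions and sequences were taken from it (GRCh38). The members and lists were chosen with earlier results of these data known.

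Gene counts were summed over all models of a gene identifier and divided by library totals (CPM). 1 read was worth 0.735 CPM in replicate 1 and 0.662 CPM in replicate 2. Where 2 identifiers shared a symbol, each was tested separately. Tests were the two-sided exact binomial test per gene (at least 10 reads) and Fisher's exact test of known shares and of the leading known model (at least 20 reads in each library), with scipy 1.17.1, Benjamini-Hochberg adjustment over all genes and a threshold of 0.05. They were also run on simulated counts with counting error only. Such counts cannot show how the tests behave where libraries differ by more than counting error. Scaling alternatives used edgeR 4.0.16 (TMM) and DESeq2 1.42.0; with 1 group, neither gave a test. A count of 0 was taken to allow 3 reads. Coding sequences were aligned globally with Biopython 1.88. Named were all members, their leading models, up to 3 NIC or NNC models per member with at least 10 reads in each library, pseudogenes with at least 10 reads (none had these; those with a read and 3 others were named after their values were seen), and of the other pathway genes the 5 with the highest mean CPM and those past the test. No gene was named for likeness of pattern, since 2 libraries of 1 group hold none.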

Additional observations from a re-analysis of the deposited data

How the results depend on the processing

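No paired analysis was possible because the 2 libraries form 1 group. Without either replicate, levels ran from 82.1 to 90.4 CPM for PRDX4 up to 893 to 969 CPM for GPX1, and the summed share from 0.410% to 0.438%. Members past the gene test numbered 4 in place of 2 with known models only, and 1 with no minimum of reads, where GPX4 had an adjusted p of 0.0545 (exact binomial test); TMM, DESeq2 and mitochondria-free scaling gave 2. With known models only, 1042 of 5528 genes tested passed, in place of 537 of 10634. PRDX1, PRDX2, PRDX3 and GPX1 were the 4 members. With no minimum of reads 462 of 16645 genes passed, and with TMM, DESeq2 and mitochondria-free scaling 554, 533 and 548 of 10634. In that known-only setting the ratio changed sign for PRDX3 (-0.69), TXN (0.0661), GPX1 (0.16) and SOD1 (0.0865), and without genomic models for PRDX3 (-0.42). Of the other pathway genes 3 in place of 1 passed under both settings. Of all genes, 1042 of 5528 passed with known models only and 723 of 8758 without genomic models. Members past the known-share test numbered 5 to 8 of 10 under the alternatives and 7 in the main test. Of all genes 27.1% passed in the main test. With at least 100 reads in each library 61.2% of all genes and 7 members passed. For the other alternatives the share of all genes was not counted. Members past the leading-model test numbered 7 of 10 in place of 1 of 8 when models of any category counted (29.8% of all genes passed); the difference then changed sign for PRDX2 (-8.25 points) and PRDX5 (-7.02 points). Levels depended on the models counted. With known models only, mean levels were 1061 CPM for PRDX1, 509.7 for PRDX2, 102 for PRDX3, 98.8 for PRDX4, 459.6 for PRDX5, 213 for PRDX6, 995 for TXN, 1788 for GPX1, 143 for GPX4 and 502 for SOD1, and the summed share was 0.587%. Without genomic models they were 422 for PRDX2, 91.5 for PRDX3, 99.3 for PRDX4, 392 for PRDX5, 641 for TXN, 1072 for GPX1, 522 for GPX4 and 346 for SOD1, and the share was 0.471%. These settings also shrink the library totals. The causes of the changes between settings were not tested. With 123 to 197 reads, PRDX3 and PRDX4 had log2 intervals of -0.15 to 0.47 and -0.51 to 0.23, so the counts leave differences of this range possible.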

Other observations

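The single genomic model of PRDX1, ENCODEHT000469071, was listed with a length of 19 bases and held 50 reads in replicate 1 and 105 in replicate 2. The 5-exon suffix model ENCODEHT000441026 of PRDX5 was listed at 2146 bases, longer than the complete PRDX5-201 of 893 bases, and had 14 and 31 reads. The 3-exon suffix model ENCODEHT000623022 of PRDX6, at 1998 bases, was likewise longer than PRDX6-201 and had 7 and 21 reads. The lengths of PRDX5-201 and PRDX6-201 are those of the annotation and not of their reads. The models named here were chosen after their values were seen.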
